A study of Homo sapiens with 12 samples.

Results

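The comparison described here was the effect of GALNT1 siRNA that HA22T and PLC5 cells shared, taken as the average of the difference between siGALNT1 and siControl in each line. HA22T and PLC5 are established human hepatocellular carcinoma (HCC) cell lines grown in DMEM with serum. Each line received 10 nM siRNA for 48 h, either a non-targeting one (siControl) or a pool against GALNT1 (siGALNT1), and total RNA was hybridized to one-color Agilent arrays. All 12 arrays of the series entered the comparison, 6 siGALNT1 and 6 siControl, with 3 arrays in each of the groups HA22T siControl, HA22T siGALNT1, PLC5 siControl and PLC5 siGALNT1. GALNT1 was targeted with 1 siRNA pool only, and no second siRNA and no rescue of GALNT1 was part of the comparison. The labels do not say whether the 3 arrays of a group came from separate cultures, and the p-values therefore measure the spread between these arrays, which may be technical.

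GALNT1 encodes a Golgi enzyme that starts mucin-type O-glycosylation by adding N-acetylgalactosamine to serine or threonine of proteins on their way to the cell surface. It belongs to a family of related GALNT enzymes whose substrates partly overlap. Small interfering RNAs direct cleavage of the matching mRNA, and a pool can also lower other transcripts through partial matches in its seed regions. The part of such matches in the values below was not tested.

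Values are log2 signals scaled to the 75th percentile of the array, so that 0 is the signal at that percentile. Differences are siGALNT1 minus siControl on this log2 scale, where -1 is a halving. The test took probes with signal well above background on 3 or more of a line's 6 arrays, in both lines, which left 34487 probes, and each gene was read from its brightest tested probe, which gave 16437 genes. On the 12 arrays, 36679 to 48873 of 58717 spots were well above background. Spots flagged as non-uniform numbered 489 to 3633 per array and were left out. The correlation between arrays of 1 group was 0.965 to 0.986. Of 19 hepatocyte markers, all 19 were detected on at least 3 arrays in PLC5 and 14 in HA22T, where APOH was well above background on 0 of 6 arrays. This flag was lenient, as 5 of 7 blood cell markers also carried it in each line. All HA22T arrays and the first pair of PLC5 arrays lay on 1 slide and the remaining 4 PLC5 arrays on a second one. On both slides every siControl array lay in column 1 or 3 and every siGALNT1 array in column 2 or 4, so that siRNA and column cannot be told apart.

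GALNT1 itself was measured first. In HA22T the siControl arrays read 1.32, 0.75 and 0.85 and the siGALNT1 arrays -3.15, -3.68 and -5.55. In PLC5 the siControl arrays read 0.87, 0.37 and 0.61 and the siGALNT1 arrays -1.93, -3.47 and -3.92. The groups did not overlap in either line. The transcript fell by 5.10 on the log2 scale in HA22T and fell by 3.72 in PLC5, and the shared difference was -4.41 ± 0.40 (SE, 12 arrays; adjusted p = 0.0012 with limma). This leaves 4.70% of the siControl signal, with a 95% interval of 2.57 to 8.62%. In HA22T only 2 of 3 siGALNT1 arrays were well above background for this probe, against 3 of 3 in PLC5, so the low end is measured with little signal. A second GALNT1 probe gave a shared difference of -3.89 ± 0.32 (adjusted p = 7.3e-04). The difference between lines was 1.38 (unadjusted p = 0.11) for the brighter probe and 1.72 (unadjusted p = 0.020, adjusted p = 0.97) for the second.

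Across all probes, 3 had an adjusted p below 0.05 for the shared difference, 0.0087% of those tested, and all 3 were lower. Both GALNT1 probes are among them and the third belongs to HAGH. At an unadjusted p below 0.05, 277 of 16437 genes passed (1.69%), fewer than that threshold alone would let through. Of these, 135 were higher (0.821%) and 142 lower (0.864%). The criterion of 1.5-fold and an unadjusted p below 0.05 with the same sign in both lines was met by 310 probes (0.899%), 157 higher and 153 lower. That count rose to 688 when HA22T siGALNT1 replicate 1 was left out and to 626 without PLC5 siGALNT1 replicate 2. The split depended on the processing. It was 173 higher and 58 lower after normexp background correction, and 240 higher and 84 lower when the percentile was taken over unflagged spots. Quantile normalization gave 134 higher and 174 lower, and median scaling 152 higher and 200 lower. With all arrays, 39.97% of tested probes differed in the same direction in both lines, and probes with opposite signs were the majority. This share depended on single arrays. It ran from 33.44% without PLC5 siGALNT1 replicate 3 to 50.25% without PLC5 siControl replicate 2. In the latter case opposite signs were no longer the majority. After normexp background correction the share was 46.02%.

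A stricter view asked for every siGALNT1 array to lie above, or every one to lie below, all siControl arrays of its line in both lines. In this way 16 genes were higher (0.0973%) and 36 were lower (0.219%). For a gene on all 12 arrays, such separation has an exact two-sided permutation p of 0.005, the smallest that 400 rearrangements within lines allow. Both shares together lie below that p, so the counts alone do not show an effect. Among the 14393 genes with a value on all 12 arrays, 6 were higher and 24 lower. The balance between directions again depended on the processing, with 26 higher and 23 lower under the percentile of unflagged spots. Lower genes outnumbered higher ones after normexp (33 against 26), quantile normalization (33 against 8) and median scaling (34 against 14), and with flagged spots kept (24 against 8). Of the 16 higher and 36 lower genes counted first, 5 higher and 20 lower ones also met the criterion of 1.5-fold and an unadjusted p below 0.05. In the plot of one line against the other, GALNT1 lies far from every other gene, and HAGH is next along the diagonal.

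**Figure D1:**
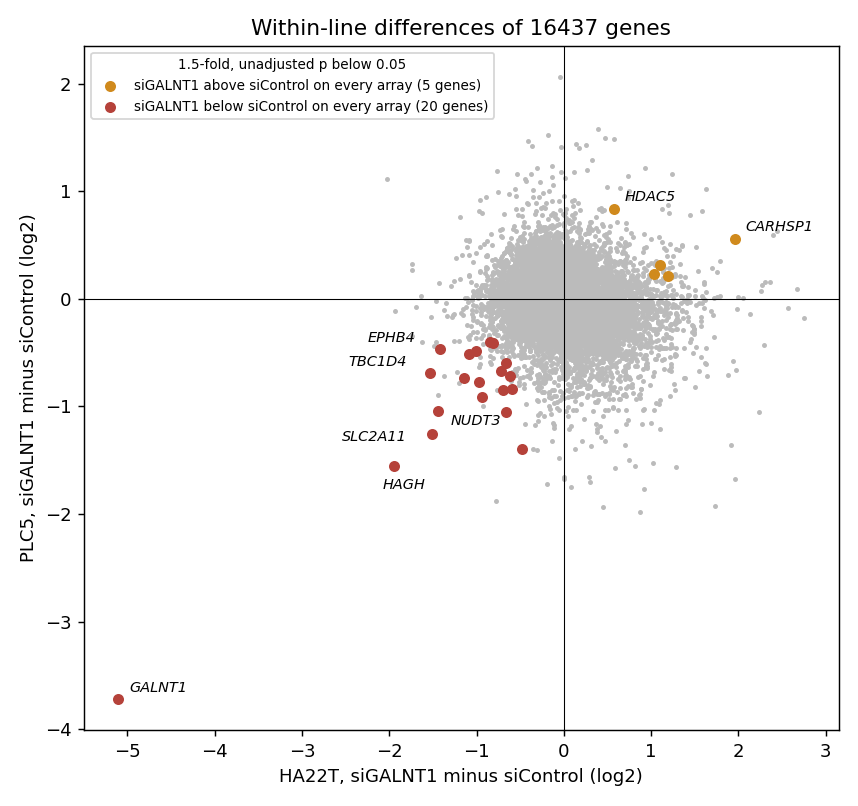
Difference between siGALNT1 and siControl (log2) in HA22T on the x axis and in PLC5 on the y axis, with 1 grey point for each of 16437 genes. The 20 red and 5 orange points are genes separated on all measured arrays in both lines and past 1.5-fold; GALNT1 lies at -5.10 and -3.72, and HAGH at -1.95 and -1.55.

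HAGH encodes hydroxyacylglutathione hydrolase (glyoxalase II), the enzyme that releases D-lactate and glutathione in the last step of methylglyoxal detoxification. Its siControl arrays read -0.37, -0.26 and -0.11 in HA22T and 0.65, 0.33 and 0.39 in PLC5. Its siGALNT1 arrays read -2.57, -2.26 and -1.75 in HA22T and -0.89, -0.89 and -1.51 in PLC5. Every siGALNT1 array lay below every siControl array of its line, by more than 1 log2 unit. HAGH fell by 1.95 in HA22T and fell by 1.55 in PLC5, and the shared difference was -1.75 ± 0.19 (SE, 12 arrays; adjusted p = 0.0053 with limma), with 29.7% of the siControl signal left (95% interval 22.4 to 39.5%). The lines differed by 0.39 (unadjusted p = 0.32). An exact two-sided permutation test within lines over 12 arrays gave p = 0.005, which is the smallest value its 400 rearrangements allow. All 12 arrays were well above background for HAGH. On the first slide the HA22T difference was -1.95 and that of the single PLC5 pair -1.54, and on the second slide the PLC5 difference was -1.56.

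**Figure D2:**
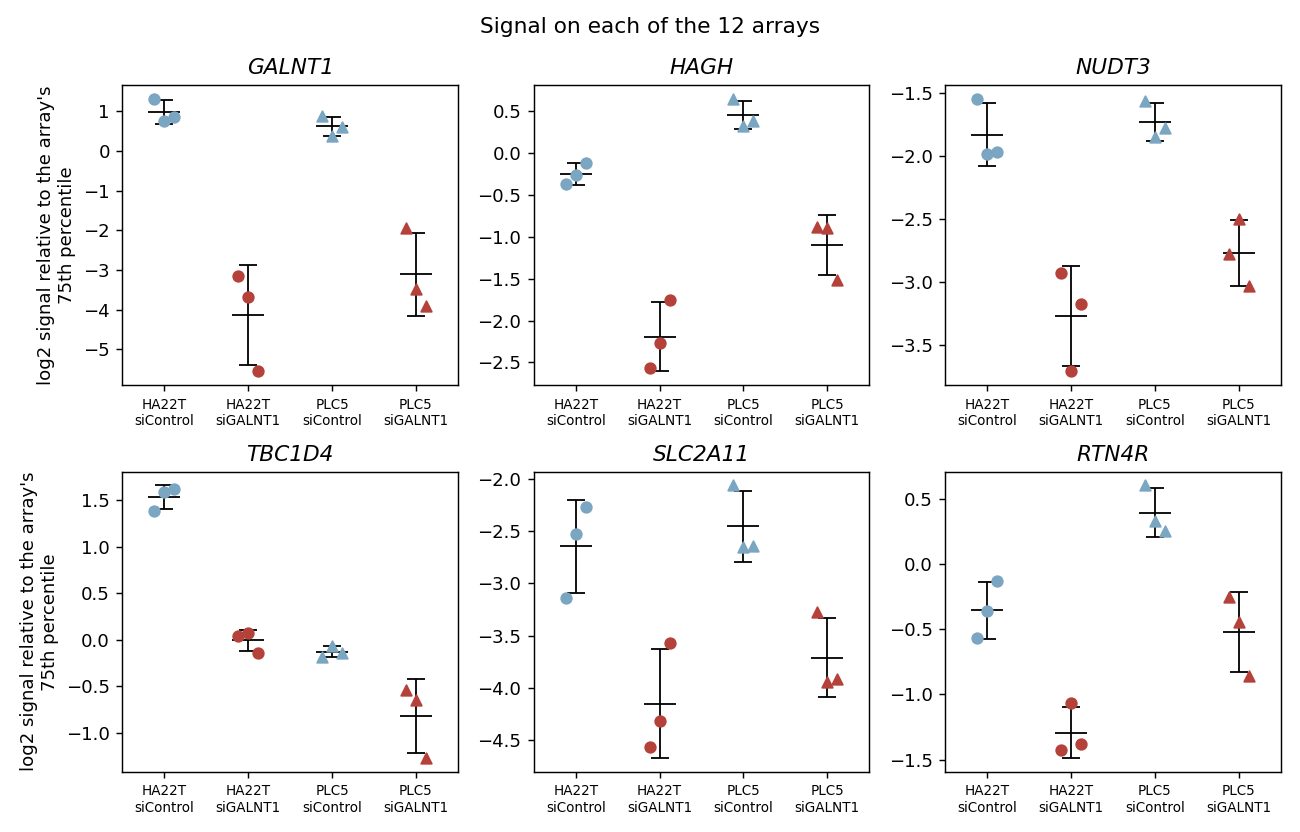
Log2 signal relative to the 75th percentile of the array for 6 genes on each of the 12 arrays, with siControl in blue and siGALNT1 in red, HA22T as circles and PLC5 as triangles. Bars are the mean and SD of 3 arrays; in all 6 genes the siGALNT1 arrays of a line lie below its siControl arrays.

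The start of HAGH lies head to head with FAHD1, a gene for a mitochondrial acylpyruvase, and the promoter windows of the pair share 120 bases, which makes FAHD1 a gene to read beside it. FAHD1 siControl arrays read -0.58, -1.56 and -1.51 in HA22T and 1.46, 0.79 and 0.93 in PLC5. The siGALNT1 arrays read -1.07, -1.92 and -1.91 in HA22T and 1.43, 1.02 and 0.59 in PLC5, overlapping the controls in both lines. Its shared difference was -0.23 ± 0.25 (unadjusted p = 0.37; 95% interval -0.77 to 0.30), an interval that does not reach the value of HAGH. None of the 3 nearest genes on either side of HAGH had an unadjusted p below 0.05, among them IGFALS with a shared difference of 0.24 ± 0.23 (unadjusted p = 0.31). Around NUDT3, which is described next, SMIM29 had a difference of 0.58 ± 0.39 and RPS10 one of -0.24 ± 0.21, and the annotated read-through transcript RPS10-NUDT3 was not tested on its own.

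These promoter windows are printed from RefSeq (GRCh38.p14), 250 bases before to 50 after the start, because HAGH and NUDT3 were lower in both lines while FAHD1 overlapped its controls. HAGH is on the minus strand at chr16:1826776-1827075, with the CCAAT box in capitals (CCAAT or ATTGG, either strand). FAHD1 is on the plus strand at chr16:1826956-1827255, with the E-box CACGTG in capitals. NUDT3 is on the minus strand at chr6:34392620-34392919, with the YY1 motif AAGATGG in capitals, which was chosen after the sequence had been read.
HAGH: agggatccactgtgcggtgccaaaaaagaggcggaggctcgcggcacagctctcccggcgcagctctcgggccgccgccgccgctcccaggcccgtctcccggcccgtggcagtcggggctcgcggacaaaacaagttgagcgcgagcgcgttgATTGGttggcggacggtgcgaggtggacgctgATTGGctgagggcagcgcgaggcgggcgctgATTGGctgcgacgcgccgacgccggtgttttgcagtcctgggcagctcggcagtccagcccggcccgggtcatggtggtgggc
FAHD1: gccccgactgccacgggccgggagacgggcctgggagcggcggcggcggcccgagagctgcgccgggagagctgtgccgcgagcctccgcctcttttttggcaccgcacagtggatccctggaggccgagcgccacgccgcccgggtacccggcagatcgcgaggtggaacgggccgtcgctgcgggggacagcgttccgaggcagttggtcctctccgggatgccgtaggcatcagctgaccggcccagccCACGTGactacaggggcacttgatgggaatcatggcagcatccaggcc
NUDT3: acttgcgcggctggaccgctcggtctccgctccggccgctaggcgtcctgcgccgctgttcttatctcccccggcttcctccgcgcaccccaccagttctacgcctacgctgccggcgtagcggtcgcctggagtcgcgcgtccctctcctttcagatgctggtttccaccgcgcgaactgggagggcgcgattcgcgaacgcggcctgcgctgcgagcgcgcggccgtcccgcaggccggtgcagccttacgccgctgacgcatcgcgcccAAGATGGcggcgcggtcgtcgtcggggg
The HAGH window holds 3 CCAAT boxes, which begin 96, 64 and 33 bases before the start, and 3.26% of 35116 promoter windows hold at least 3. All 3 lie outside the 120 bases shared with FAHD1, whose window holds none. The windows of NUDT3, SLC2A11 and RTN4R, which were also lower in both lines, hold no CCAAT box, and that of EPHB4 holds 1. TBC1D4 had no promoter window. Windows were searched for the GC box, CCAAT box, TATA box, E-box and YY1 motif, and the motif in capitals differs between the genes. Any part of these motifs in the differences was not tested. An E-box is in 7.26% of windows, and AAGATGG or its complement is in 5.84%. A match is a stretch of letters and not a measured binding site. A second HAGH window at chr16:1827145-1827444 also overlaps the FAHD1 window. It holds no CCAAT box and 1 E-box, which is the same stretch of bases as the E-box printed in capitals for FAHD1.

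The next genes by p-value missed the adjusted threshold and are given as values. NUDT3 encodes a nudix hydrolase that acts on diphosphoinositol polyphosphates and on mRNA caps. It read -1.55, -1.99 and -1.97 on the HA22T siControl arrays against -2.93, -3.71 and -3.17 with siGALNT1. In PLC5 it read -1.57, -1.85 and -1.78 against -2.78, -2.50 and -3.03. No siGALNT1 array overlapped a siControl array, and the shared difference of NUDT3 was -1.24 ± 0.19 (adjusted p = 0.11), with -1.44 in HA22T and -1.04 in PLC5. Its adjusted p ranged from 0.023 to 0.54 over the alternatives that kept both lines in the fit, and was 0.98 in HA22T alone and 1.00 on the PLC5-only slide.

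TBC1D4 (AS160) encodes a Rab GTPase-activating protein known for insulin-controlled movement of glucose transporter vesicles. Its siControl arrays read 1.38, 1.59 and 1.62 in HA22T and -0.18, -0.06 and -0.14 in PLC5. Its siGALNT1 arrays read 0.05, 0.08 and -0.14 in HA22T and -0.53, -0.64 and -1.27 in PLC5. The groups did not overlap within either line, and the shared difference of TBC1D4 was -1.11 ± 0.17 (adjusted p = 0.11). The decrease was -1.53 in HA22T and -0.69 in PLC5, a difference between lines of 0.85 with an unadjusted p of 0.025 and an adjusted p of 0.97. Over the alternatives with both lines the adjusted p for TBC1D4 ran from 0.016 to 0.56, and it was 0.97 in HA22T alone and 1.00 on the PLC5-only slide.

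SLC2A11 encodes a sugar transporter of the GLUT family. Its shared difference was -1.38 ± 0.24 (adjusted p = 0.32), with -1.51 in HA22T and -1.26 in PLC5. Its siControl arrays lay between -3.14 and -2.06 and its siGALNT1 arrays between -4.57 and -3.27, with no overlap within a line. This gene is dim, and a second SLC2A11 probe gave 0.37 ± 0.25 in the opposite direction (unadjusted p = 0.16), so the probes of the gene disagreed. Averaged over its probes the shared difference was -0.51, and the adjusted p ran from 0.037 to 1.00 over the alternatives with both lines. RTN4R encodes the Nogo receptor, a cell surface protein that restrains axon growth. Its shared difference was -0.93 ± 0.17 (adjusted p = 0.59), and the lines were close, with -0.94 in HA22T and -0.91 in PLC5. EPHB4, the receptor tyrosine kinase for ephrin B2, had -0.94 ± 0.19 (adjusted p = 0.72), with -1.42 in HA22T and -0.47 in PLC5 (difference between lines 0.95, unadjusted p = 0.025, adjusted p = 0.97). A second EPHB4 probe gave -0.73 ± 0.16.

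Among the remaining separated genes past 1.5-fold, TTYH3, a member of the tweety family of membrane proteins, had -0.94 ± 0.20, with -1.15 in HA22T and -0.74 in PLC5. STRBP, an RNA-binding protein, had -0.87 ± 0.21 on 11 arrays. PHF2, a histone demethylase, had -0.86 ± 0.34 and ZC3H7B, a zinc finger protein, had -0.80 ± 0.27, but after normexp background correction these 2 dim genes were at -0.25 and -0.22. LOC729609 had -0.94 ± 0.29 on 8 arrays. With flagged spots kept, the arrays of LOC729609 and STRBP no longer separated in both lines. A further 8 lower genes, among them TBC1D22B described below, had shared differences from -0.78 to -0.61. The adjusted p of each of these genes was near 1.

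On the higher side the changes were smaller and rested on fewer values. TMC4, a transmembrane channel-like protein, read -3.56, -2.35 and -3.02 with siControl and -1.76, -1.94 and -1.93 with siGALNT1 in HA22T. In PLC5 TMC4 read -1.32, -1.22 and -1.60 against -0.95, -1.13 and -1.13. The siGALNT1 arrays of TMC4 were above all siControl arrays in both lines, by a shared 0.71 ± 0.20 (unadjusted p = 0.0037). HDAC5, a class IIa histone deacetylase, was higher by a shared 0.71 ± 0.21 (unadjusted p = 0.0046), with 0.58 in HA22T and 0.84 in PLC5. CARHSP1, an RNA-binding protein, had 1.26 ± 0.25 on 9 arrays, because 3 of its spots were flagged. With flagged spots kept, the shared difference of CARHSP1 was 0.58 (unadjusted p = 0.078). The E3 ubiquitin ligase genes SH3RF2 and RNF157 had 0.70 ± 0.23 on 8 arrays and 0.63 ± 0.24 on 10 arrays. With flagged spots kept, the arrays of CARHSP1, SH3RF2 and RNF157 no longer separated in both lines, and a second RNF157 probe gave -0.10 ± 0.18. TMC4 and HDAC5 were thus the only 2 genes past this criterion that were higher with values on all 12 arrays, against 16 that were lower.

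**Figure D3:**
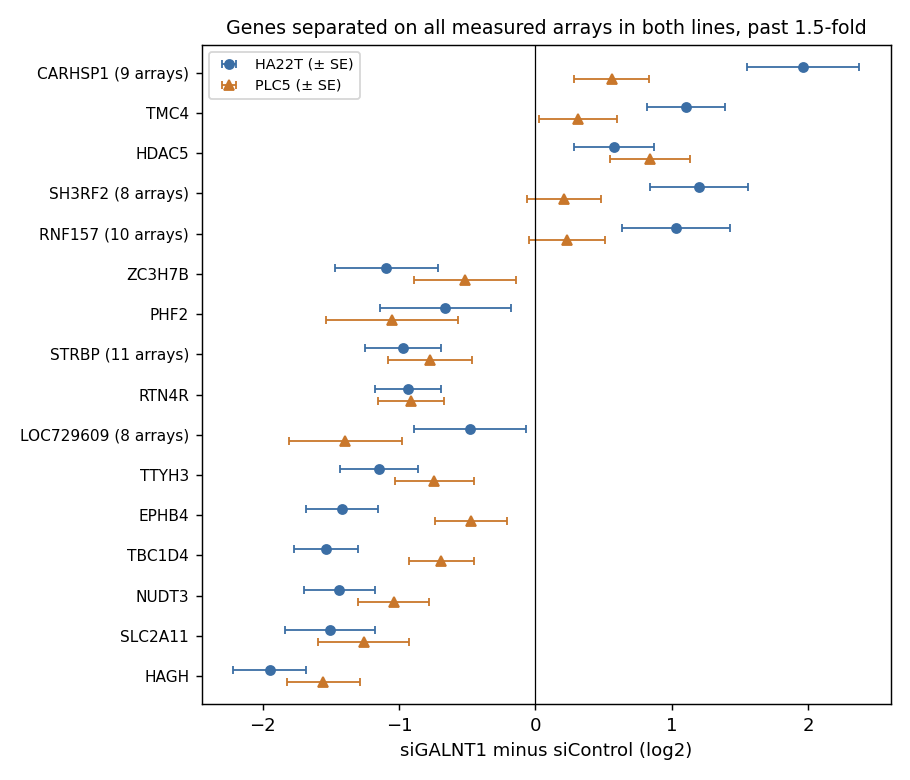
Difference between siGALNT1 and siControl (log2, ± SE) in HA22T (circles) and PLC5 (triangles) for 16 genes other than GALNT1 whose measured arrays separated in both lines past 1.5-fold, with the number of arrays where spots were left out. HAGH at the bottom has the largest decreases, -1.95 and -1.55, and the 5 higher genes lie at the top.

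The effect of siGALNT1 was also compared between the lines. No probe (0 of 34487, 0%) had an adjusted p below 0.05 for the difference with limma. At an unadjusted p below 0.05 there were 1090 of 34487, fewer than that threshold alone would let through. A prior with an intensity trend gave 1 probe with an adjusted p below 0.05. With 3 arrays a group, a p that misses the threshold does not show that the lines responded alike.

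Of the GALNT family, 12 of 20 members were tested, and GALNT1 alone had an unadjusted p below 0.05 for the shared difference. GALNT2, a widely expressed relative, had 0.05 ± 0.17 (95% interval -0.32 to 0.41). GALNT7, which acts on peptides already glycosylated, had -0.10 ± 0.15 (interval -0.43 to 0.23), GALNT10 had -0.14 ± 0.18 and GALNT11 had -0.17 ± 0.19. Other than GALNT1, the shared differences ran from -0.17 to 0.46. The highest was GALNT8, at 1.63 in HA22T and -0.72 in PLC5 (unadjusted p of the difference 0.010, adjusted p = 0.97), on a probe well above background on 7 of 12 arrays. Genes that extend or cap the O-glycan core gave 0 of 21 with an unadjusted p below 0.05, and their median shared difference was -0.12, against -0.02 over all genes. The members furthest from 0 were GCNT1, which branches the core, with -0.46 ± 0.35, and SLC35A1, the CMP-sialic acid transporter, with -0.29 ± 0.20. In HA22T they had -0.80 and -0.48, and in PLC5 -0.13 and -0.10.

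**Figure D4:**
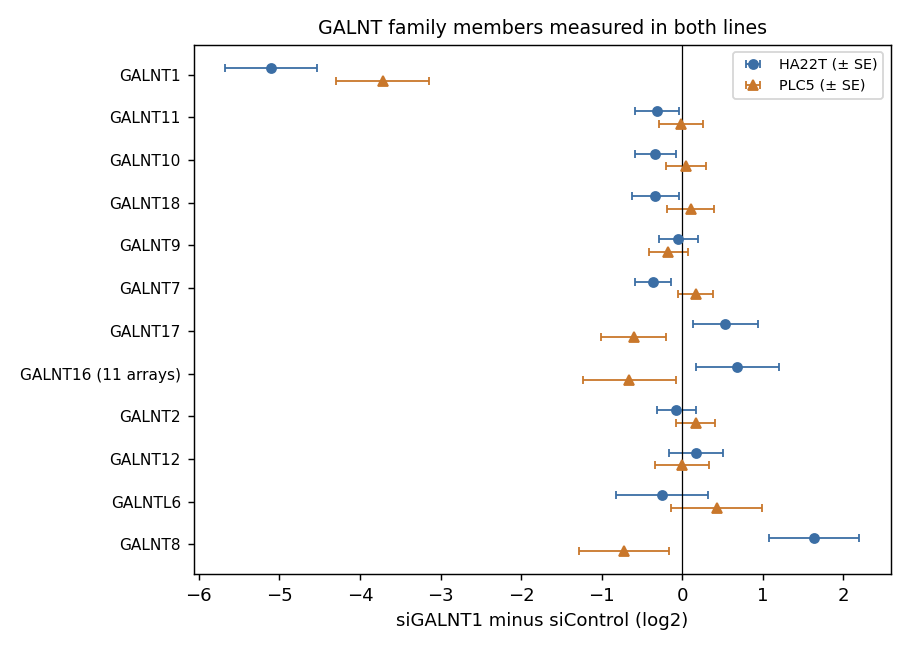
Difference between siGALNT1 and siControl (log2, ± SE) in HA22T (circles) and PLC5 (triangles) for the 12 tested members of the GALNT family. GALNT1 lies at -5.10 and -3.72, and the other members lie between -0.72 and 1.63.

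The study addressed signaling through the epidermal growth factor receptor, so the genes of that pathway were read as lists. EGFR, the receptor, read 1.28, 1.14 and 1.23 with siControl and 1.79, 1.27 and 1.26 with siGALNT1 in HA22T. In PLC5 EGFR read 0.82, 0.88 and 0.80 with siControl and 1.14, 1.18 and 0.96 with siGALNT1. The siGALNT1 arrays were all above siControl in PLC5 and overlapped in HA22T, and the shared difference was 0.24 ± 0.16 (unadjusted p = 0.14 with limma; exact permutation p = 0.015). A second EGFR probe gave 0.02 ± 0.25. EGF had no tested probe. The list of ERBB receptors and ligands, which also holds the proteases ADAM10 and ADAM17, gave 0 of 14 at an unadjusted p below 0.05, with a median of 0.21. By line this median was 0.44 in HA22T and 0.03 in PLC5. HBEGF, a ligand, had 0.68 ± 0.36 and NRG2 had -0.70 ± 0.37 in this list, with NRG2 at -1.26 in HA22T and -0.14 in PLC5. Targets and feedback genes of ERK gave 0 of 18, with DUSP5, a phosphatase that inactivates ERK, at 0.42 ± 0.24, EGR1, an immediate early transcription factor, at -0.61 ± 1.03, and a list median within 0.001 of 0. Genes of EGFR internalization and sorting gave 0 of 28 and a median of -0.01. CBLB, a ubiquitin ligase for the receptor, was at 0.26 ± 0.26 and EEA1, a tether of early endosomes, at -0.26 ± 0.21. EEA1 had -0.49 in HA22T and -0.03 in PLC5. GAPDH, a reference gene, had 0.04 ± 0.19.

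Integrins and focal adhesion genes gave 0 of 18, with PARVA at -0.42 ± 0.21 and ITGB4 at -0.20 ± 0.15. Matrix proteases and their inhibitors gave 0 of 14, with MMP11 at 0.51 ± 0.25 and MMP14 at -0.48 ± 0.28. The value of ITGB4 was -0.40 in HA22T and 0.0035 in PLC5, and that of MMP11 was 0.97 in HA22T and 0.05 in PLC5.

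Among lists on the response of a cell to transfected RNA, interferon-induced genes gave 2 of 19 at an unadjusted p below 0.05, both lower. These were OAS1 with -0.50 ± 0.21 and OAS2 with -0.46 ± 0.21, 2 synthetases that sense double-stranded RNA. OAS1 was dim in HA22T, where 1 of 3 siGALNT1 arrays was well above background. A second OAS2 probe gave -0.48 ± 0.29 (unadjusted p = 0.13 with limma). The small RNA machinery gave 1 of 14, TNRC6A, a scaffold of the silencing complex, with 0.48 ± 0.20. The unfolded protein response (0 of 22), p53 targets (0 of 20), mitosis (0 of 21), DNA replication (0 of 24) and cholesterol synthesis (0 of 20) had medians between 0.02 and 0.09. Their members furthest from 0 were DDIT3 (0.31 ± 0.31) and PDIA6 (0.18 ± 0.18) of the unfolded protein response, and TP53INP1 (-0.41 ± 0.26) and GDF15 (0.39 ± 0.28) of the p53 targets. For mitosis they were PLK1 (-0.40 ± 0.21) and CDK1 (0.21 ± 0.25), and for DNA replication MCM2 (-0.22 ± 0.26) and CDC6 (0.21 ± 0.31). For cholesterol synthesis they were HMGCS1 (0.32 ± 0.21) and MSMO1 (0.27 ± 0.35). Taken by line, PLK1 had -0.87 in HA22T and 0.06 in PLC5, and TP53INP1 had -0.76 in HA22T and -0.06 in PLC5. The median of mitosis was -0.10 in HA22T and 0.24 in PLC5, and that of DNA replication -0.14 and 0.10. Over all genes these medians were -0.10 in HA22T and 0.04 in PLC5. Glycolysis and the hypoxia response gave 1 of 23, PFKP, a platelet-type phosphofructokinase, with -0.39 ± 0.15 and arrays that separated in both lines, and -0.19 ± 0.15 by a second probe. Epithelial and mesenchymal genes gave 1 of 14, S100A4, a calcium-binding protein, but this shared value of -0.83 came from PLC5 (-1.65) and not from HA22T (-0.00147), on 8 arrays with only 1 PLC5 siControl array among them. With flagged spots kept the shared difference of S100A4 was -0.46 (unadjusted p = 0.049), and with 1 effect fitted for both lines it was -0.59 (unadjusted p = 0.10). Over the 15 lists reported here without the GALNT family, 5 of 290 genes (1.72%) had an unadjusted p below 0.05, 1 higher and 4 lower, a share near the 1.69% of all genes, and none passed the adjusted threshold.

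**Figure D5:**
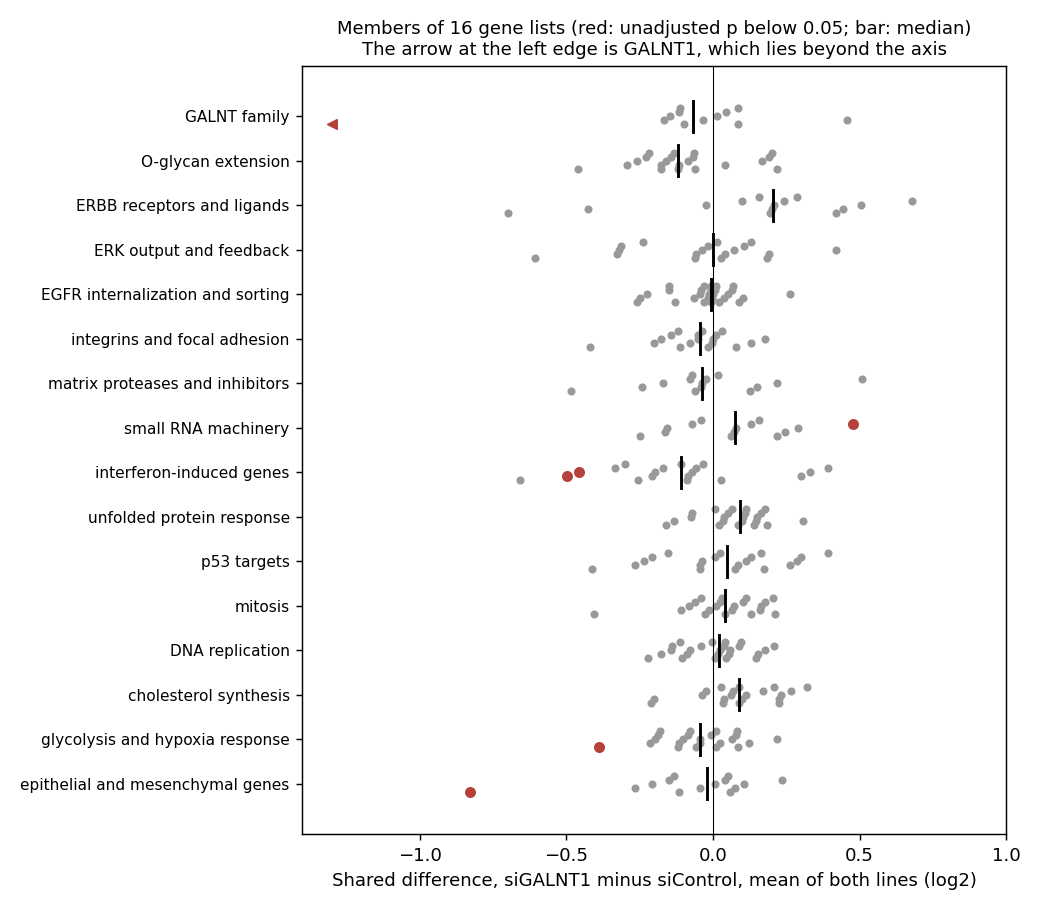
Shared difference between siGALNT1 and siControl (log2, mean of both lines) for each tested member of 16 gene lists (without the genes the study lists as lower), with members at an unadjusted p below 0.05 in red and a bar at the median of each list. GALNT1, at -4.41, is drawn as an arrow at the left edge. Of the medians drawn, that of the ERBB list at 0.21 lies furthest from 0, with 0.44 in HA22T and 0.03 in PLC5.

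The study lists 6 genes as lower in both lines, a choice made on these same arrays, so their direction here is not independent evidence. Of the 6, 4 were tested and all 4 had an unadjusted p below 0.05 and a lower shared value. Besides NUDT3 and TBC1D4, TBC1D22B, a relative of TBC1D4, had -0.63 ± 0.15 with -0.66 in HA22T and -0.59 in PLC5, and no overlap of arrays in either line. TBCK, another protein with a TBC domain, had -0.34 ± 0.15 but differed between the lines, with -0.76 in HA22T and 0.08 in PLC5 (unadjusted p of the difference 0.017). Of 14 tested hepatocyte markers, 2 had an unadjusted p below 0.05, against 1.69% of all genes, and the median was -0.05. These 2, of opposite sign, were named after their values had been seen. AFP, the oncofetal alpha-fetoprotein, had -0.995 ± 0.27 (unadjusted p = 0.0026) and FGB, the fibrinogen beta chain, 0.57 ± 0.20 (unadjusted p = 0.013), neither past the adjusted threshold. The other fibrinogen chains, FGA with 0.33 and FGG with -0.25, differed in sign, and neither had an unadjusted p below 0.05. AFP was dim in both lines, with siGALNT1 arrays well above background on 1 of 3 in HA22T and 2 of 3 in PLC5, and FGB was dim in HA22T. In RNA from whole cultures, fewer cells that express a gene and less RNA per cell cannot be told apart.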

How the data were processed

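RNA of 12 samples was measured on one-color arrays. The authors extracted spots with Agilent Feature Extraction 10.5.1.1, and the deposited intensity values are the processed signal, with background subtracted, and the median spot and local background brightness. A second deposited file, the authors' log2 table by probe, served as an alternative. No column of another series or of fold changes was used.

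Control spots and spots flagged as non-uniform were left out, log2 of the processed signal was taken relative to the 75th percentile of all non-control spots of the array, and spots of 1 probe were averaged. A first run took the percentile over unflagged spots, and this was changed after its counts had been seen, so that it stands as an added alternative. Of 50599 probes, 28174 were named through RefSeq accessions (GRCh38.p14). Probes well above background on at least 3 of 6 arrays in each line were tested, and 79 that passed lacked a value in some group. The 4 group means were fitted with lmFit and eBayes of limma 3.58.1 (R 4.3.3) on the tested probes, the shared difference was the average of the 2 within-line differences, and p-values were adjusted by Benjamini-Hochberg over all 34487 probes, with 0.05 as the threshold. The fit was tested on simulated data with independent noise on each array, no missing spots and equal changes in both lines. That setting leaves out the missing spots of these arrays and the correlations between same-numbered arrays given below. Errors are SE from this fit unless named SD. The number of arrays limits the precision.

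The comparison, the gene lists and the rule for named genes were chosen with earlier results of these data known. Named genes are GALNT1, EGFR, EGF and GAPDH, genes with an adjusted p below 0.05 and 1 sign, up to 12 higher and 12 lower genes past 1.5-fold with separated arrays, up to 2 higher and 2 lower genes per list with an unadjusted p below 0.05 (otherwise the 2 largest), the GALNT family and the list of the study. One of the gene lists is not reported here. Neighbouring genes, AFP and FGB were named after their values were seen. Of 61 named genes, 51 had a RefSeq promoter window. The alternatives were other background corrections, scalings, filters and models, the deposited table, a block for slide or for replicate number, array weights, the mean over the probes of a gene, single slides, and each array left out.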

Additional observations from a re-analysis of the deposited data

How the results depend on the processing

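The 3 probes with an adjusted p below 0.05, of GALNT1 and HAGH, stayed the called ones under normexp, quantile normalization, median scaling, the deposited table, no filter, non-uniform spots kept, a prior over all probes, the additive model and the slide as a block, and when any 1 array was left out (3 to 3 calls). Without moderation 0 probes passed, with GALNT1 at -4.41 (adjusted p = 0.18) and HAGH at -1.75 (adjusted p = 0.12). A filter that asked for all arrays removed both GALNT1 probes, which are dim after knockdown, and called HAGH, NUDT3 and TBC1D4, and of the 17 genes named as separated past 1.5-fold, 8 were then tested with their sign kept in both lines (16 to 17 when 1 array was left out). Array weights gave 5 calls, with NUDT3 and TBC1D4 added. HA22T arrays alone gave 0 calls, with GALNT1 at -5.10 and HAGH at -1.95, and the PLC5 arrays of the second slide gave 1, with GALNT1 at -4.18 and HAGH at -1.56.

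Probes past 1.5-fold with 1 sign, 310 in all, numbered 694 without a filter, 85 with the filter on all arrays, 169 without moderation and 681 with array weights, and 265 to 688 when 1 array was left out. Genes of all lists with an unadjusted p below 0.05 and 1 sign, 12 in all, numbered 7 to 15 when 1 array was left out, with 7 without HA22T siGALNT1 replicate 2. The prior with a trend gave 1 probe that differed between lines and added TBC1D4 to the calls. The cause was not tested for any of these.

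When replicate number entered as a block (replicate block), 5 probes passed (GALNT1, HAGH, PDE6B and SLC2A11, the last with an adjusted p of 0.037), 495 met the 1.5-fold criterion and 22 list genes passed. Same-numbered siControl and siGALNT1 arrays deviated from their group means with correlations of 0.010 to 0.59, above 0.1 in 5 of 6 pairs, and 9 of 12 arrays correlated best with their own number. This is a hint of pairing from the data and not from the labels, and as 1 pair was at 0.010 the block was kept as an alternative. Same-numbered arrays also lay side by side on a slide. PLC5 replicate 1 lay on another slide than PLC5 replicates 2 and 3. Pairing and position on the slides therefore cannot be told apart.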
